A study of Mus musculus with 9 samples.

Results

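The nuclear genes of the respiratory chain and the ATP synthase were followed in mouse cells labelled as long-term hematopoietic stem cells (LT-HSCs), the rare marrow cells that sustain blood formation. Members were the protein-coding genes whose symbol begins with Ndufa, Ndufb, Ndufc, Ndufs or Ndufv (complex I), Sdha to Sdhd (complex II), Uqcr (complex III), Cox4i or Cox5 to Cox8 (complex IV) or Atp5 (complex V). The same name stems take the Ndufaf and Sdhaf assembly factors, which are counted apart here. The rule used no measured value and took 98 of 21974 protein-coding rows, in count tables of 56262 rows. A further 13 rows matched by name and were left out as pseudogenes or non-coding RNA. The 98 rows carry 97 symbols, because Atp5o is listed in 2 rows. There were 36 members in complex I with 8 assembly factors, 4 in complex II with 4 assembly factors, 8 in complex III, 20 in complex IV and 18 in complex V. Ndufa4 and Ndufa4l2 were placed in complex IV, where the Ndufa4 protein is now assigned.

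The mice of all groups were C57BL/6 wild type, and there were 3 libraries per group. Control mice were untreated. The 5-FU+Saline and 5-FU+FMT groups both received 5-FU (5-fluorouracil, which is toxic to proliferating cells), at a dose of 250 mg/kg. Saline, given as PBS on a schedule that the labels leave out, followed in one group. In the other it was FMT, a treatment the labels leave as an abbreviation, at 5 mg/kg into a vein 1, 4 and 7 days later. Collection from treated mice was on day 8, with a gate written as Lin-, Sca1+, c-Kit+, CD150+ and C48-, the last read here as CD48-negative. The labels give neither age nor sex, and do not say whether the libraries of a group came from separate mice, so p-values measure the spread between these libraries, which may be technical.

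Total counts per library ran from 11098031 to 19270976, and 93 of the 98 members passed the filter on low counts. All 20 genes of a list of LT-HSC identity had a mean of 1 CPM (counts per 1000000 counts of a library) or more in each group. In 5-FU+Saline 8 of them were higher and 9 lower than in Control. Their summed level was 3433 to 3490 CPM for Control, 2583 to 2586 with 5-FU+Saline and 2896.5 to 2905.6 with 5-FU+FMT. Genes of the sort differed too: Slamf1 (CD150, gated positive) had means of 8.35 CPM for Control, 34.5 with 5-FU+Saline and 24.4 with 5-FU+FMT, and Cd48, gated negative, had 30.7, 53.7 and 46.7 CPM. Flt3, a receptor of multipotent progenitors, had means of 584, 70.9 and 280 CPM in the same order. Cd48 does not stand for all markers that such a gate excludes. Of 10 listed, 8 passed the count filter, and with 5-FU+Saline 4 of these stood above Control and 4 below. With FMT in place of saline, 3 rose, 3 fell and 2 did not pass the test. The groups also differed in other cells' genes. Summed levels of 16 B-lineage genes were 236 to 248 CPM for Control, 1285 to 1294 with 5-FU+Saline and 665 to 720 with 5-FU+FMT. Igha, an immunoglobulin constant region gene outside that list, was highest in Control instead. Its means were 9653.9 CPM for Control, 5956.2 with 5-FU+Saline and 6558.5 with 5-FU+FMT. Summed levels of 14 stromal genes were 69.6 to 70.4, 350 to 357 and 102 to 111 CPM in the same order. Erythroid genes went the other way: 16 of 18 were lower in 5-FU+Saline than in Control and 1 higher, 13 were higher and 1 lower in 5-FU+FMT than in 5-FU+Saline, and their sums were 1698 to 1735, 689 to 704 and 1080 to 1124 CPM. Of 13 tested genes of neutrophils and their granules 6 were lower in 5-FU+Saline, among them Mpo (means of 1277, 29.9 and 469 CPM), a granule enzyme of myeloid progenitors, and 6 were higher, among them Ltf (0.200, 8.86 and 4.94 CPM), a granule protein of later neutrophils. Xist, the RNA of the inactive X chromosome, had means of 0.870, 1201 and 682 CPM, and the Y-linked Ddx3y means of 168, 38.9 and 100 CPM. Every treated library held both. By library, Xist was at 1183, 1223 and 1198.5 CPM with 5-FU+Saline, where Ddx3y was at 37.8, 37.1 and 41.9. With 5-FU+FMT Xist was at 693, 695 and 659 CPM and Ddx3y at 99.7, 98.0 and 102. Control libraries had Xist at 1.34, 0.734 and 0.533 CPM. Sex-linked RNA therefore differed between the groups, and what it adds to a group difference cannot be told apart from treatment. Whether a library pools mice of both sexes was not tested. The part of these other cells' genes in the members' results was not tested. A change in the make-up of the cells and a change of RNA per cell cannot be told apart either.

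As background, complexes I to IV pass electrons from NADH and succinate to oxygen, complexes I, III and IV pump protons across the inner mitochondrial membrane as they do so, and complex V lets the protons back to make ATP. A handful of core subunits are made inside the mitochondrion from its own DNA, and all others come from nuclear genes such as these. Resting LT-HSCs are known for low respiration and a reliance on glycolysis, and for raising respiration when they enter division.

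Promoter sequence was available for 78 of the 97 symbols in RefSeq (GRCm38.p6, the same build as mm10), as 250 bases before and 50 after a transcript start. The letters GCGCATGC, the core of the site bound by NRF1, a regulator of respiratory genes, were found on either strand in 12 of the 78 members (15.4%), against 5.70% of 11047 tested genes and 3.05% of all 27025 genes with such a window. Shown are the last 100 bases before the start, 5′ to 3′ on the gene's own strand, for a pair of ATP synthase genes in which the letters occur on both strands and overlap, for the c-ring gene of the ATP synthase that rose most, which holds another motif, for a complex II gene, for a complex I gene that did not pass the test, and for the subunit gene of complex IV that fell. Capitals mark the NRF1 letters in Atp5k, Atp5g2, Sdhb and Ndufa6, and TCAAGGTCA, the letters of an ERR (estrogen-related receptor) site, on the opposite strand in Atp5g3.
Atp5k, chr5:108434400-108434499, minus strand: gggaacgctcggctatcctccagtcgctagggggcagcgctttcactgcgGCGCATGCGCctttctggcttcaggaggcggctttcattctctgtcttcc
Atp5g2, chr15:102671048-102671147, minus strand: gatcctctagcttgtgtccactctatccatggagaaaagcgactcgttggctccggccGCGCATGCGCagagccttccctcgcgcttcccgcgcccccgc
Atp5g3, chr2:73911327-73911426, minus strand: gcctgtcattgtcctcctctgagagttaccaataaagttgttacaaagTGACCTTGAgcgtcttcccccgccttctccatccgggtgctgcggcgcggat
Sdhb, chr4:140961171-140961270, plus strand: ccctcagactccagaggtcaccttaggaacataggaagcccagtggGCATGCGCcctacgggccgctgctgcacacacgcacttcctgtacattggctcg
Ndufa6, chr15:82354292-82354391, minus strand: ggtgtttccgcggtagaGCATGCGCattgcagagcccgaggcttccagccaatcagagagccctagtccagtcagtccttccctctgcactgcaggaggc
Cox7a2l, chr17:83514334-83514433, minus strand: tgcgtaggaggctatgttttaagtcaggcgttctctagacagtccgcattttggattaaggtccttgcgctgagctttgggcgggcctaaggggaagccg

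The letters began 50 bases before the start in Atp5k, 42 in Atp5g2, 54 in Sdhb and 83 in Ndufa6. In all of these but Atp5g3 the gene as the count tables draw it begins upstream of the RefSeq start. The YY1 letters AAGATGGC were in 10 members (12.8%), against 5.04% of tested genes, and in 9 of the 10 they lay within the 50 bases after the start, beginning at base 11 (Ndufaf8) to base 39 (Ndufb8). Among tested genes with the YY1 letters, 52.4% held them after the start. TCAAGGTCA was in 2 members, Atp5g3 and Sdhd (2.56%, against 0.335% of tested genes). Of the other motifs searched, the GABP letters CCGGAAGT were in 6.41% of members against 8.58%, the CRE letters TGACGTCA in 5.13% against 3.46%, and the E-box CACGTG in 6.41% against 11.4%. Of the 66 members with a window that were higher in 5-FU+Saline, 15.2% held the NRF1 letters. These matches are descriptions of the windows and show no binding.

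The first comparison asked how respiratory genes differed in cells taken on day 8 after 5-FU and saline. Of the 93 tested members, 81 rose, 2 fell (Cox7a2l and Atp5s) and 10 did not pass the test, at an adjusted p under 0.05. Over all 16595 genes tested, 65.5% were called, 32.8% higher and 32.7% lower. The members' median log2 fold change was 0.61, a 1.53-fold level, beside -0.02 for all genes. In 83 members the 3 libraries of 5-FU+Saline all lay above the 3 of Control, which was so for 33.7% of all genes, and in 3 members all lay below (34.1% of all genes). Most folds were moderate: 51 members rose by at least 1.5-fold, and 2 (Cox4i2 and Sdhaf1) by 2-fold or more, with Ndufc1 just below. Summed over the members, the level was 6528 ± 69.9 CPM (SD, n = 3) for Control, 9972 ± 150 for 5-FU+Saline and 8452 ± 204 for 5-FU+FMT; values after ± are SDs over 3 libraries throughout.

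**Figure D1:**
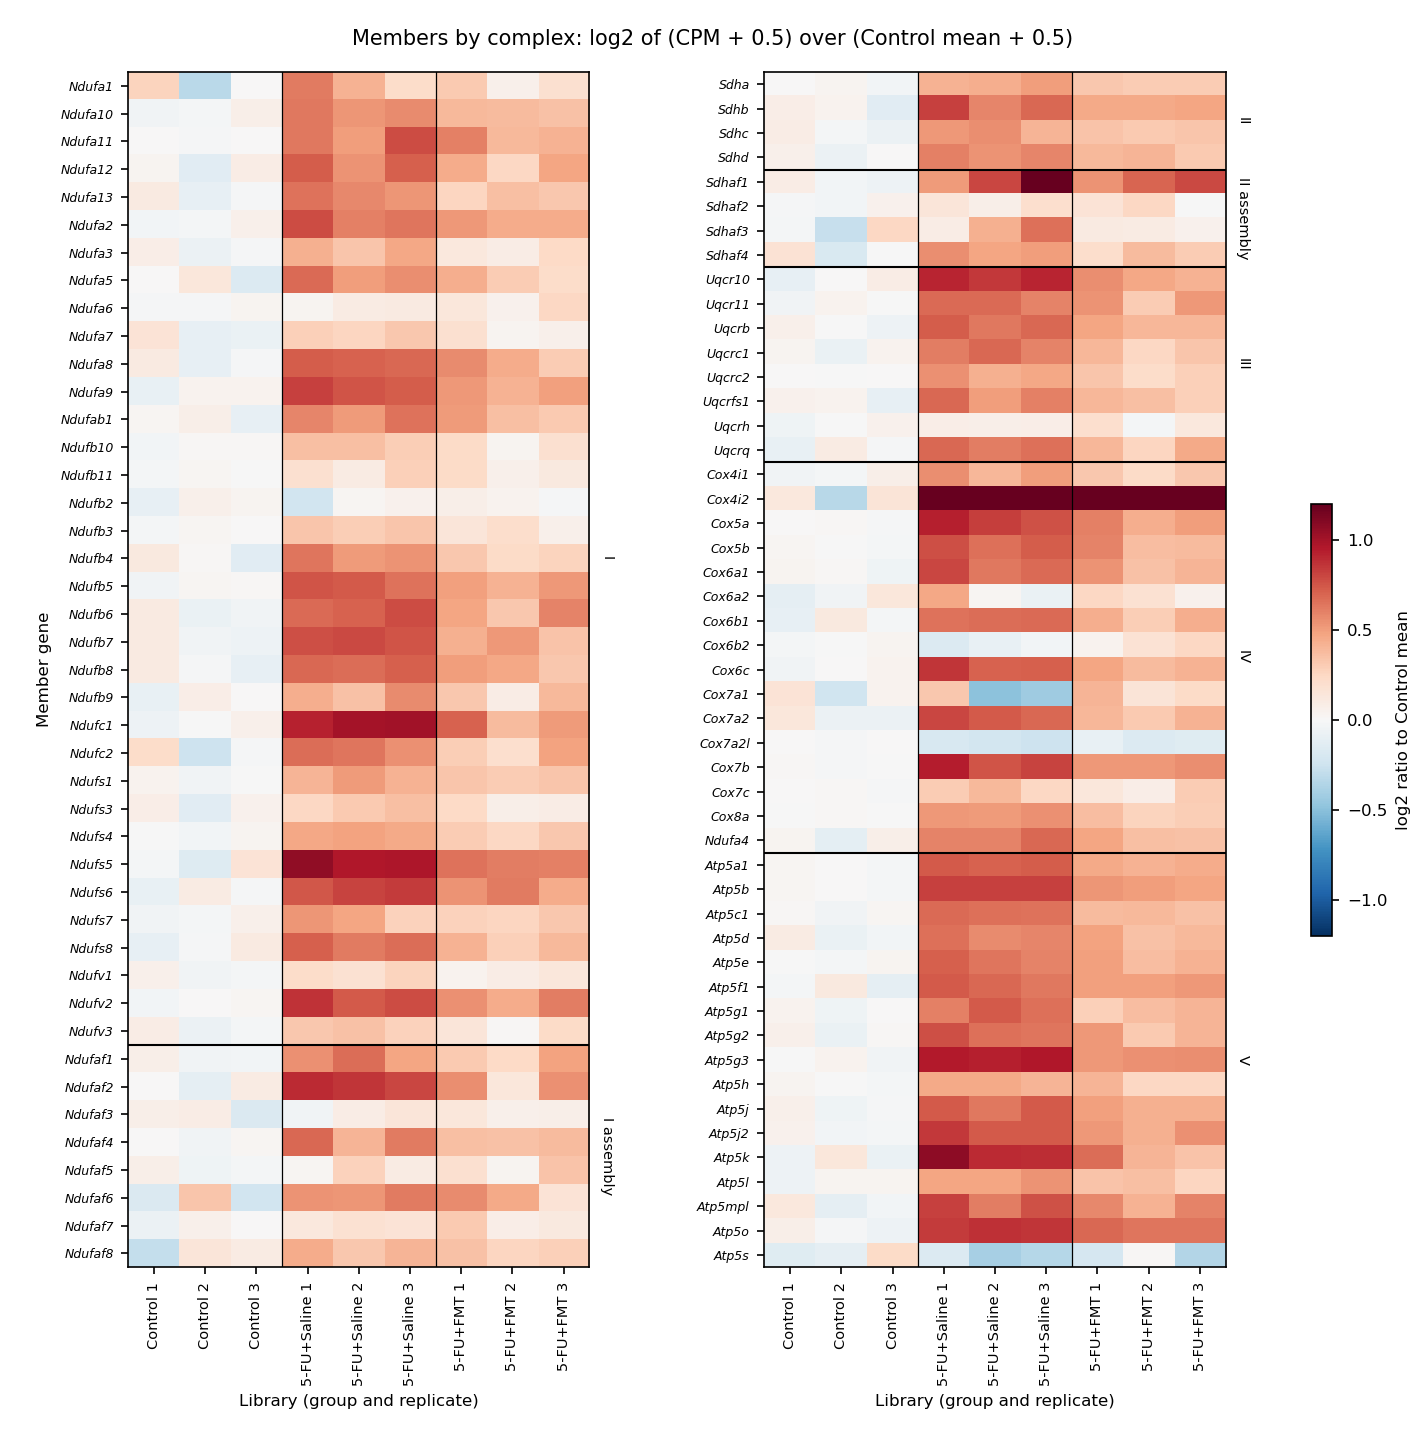
Level of 92 of the 93 tested members in each library, as the log2 ratio of CPM plus 0.5 to the Control mean plus 0.5, with rows grouped by complex and its assembly factors; the scale stops at 1.2, which Cox4i2 and 1 library of Sdhaf1 pass. Most rows are red in 5-FU+Saline and paler in 5-FU+FMT. Some stay pale or turn blue in at least 1 library of 5-FU+Saline, among them Ndufa6, Ndufb2, Ndufaf3, Uqcrh, Cox6b2, Cox7a1, Cox7a2l and Atp5s.

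Genes used by dividing cells moved the same way. All 12 genes of that list rose in 5-FU+Saline, all 12 fell in 5-FU+FMT against 5-FU+Saline, and all 12 were higher in 5-FU+FMT than in Control. The shares over all genes were 32.8%, 19.2% and 25.0%. The summed level of the 12 genes was 1877 to 1908 CPM for Control, 4152 to 4217 with 5-FU+Saline and 3206 to 3291 with 5-FU+FMT. Top2a, the topoisomerase of replicating DNA, had 359 ± 2.01, 923 ± 19.5 and 700 ± 32.3 CPM. The part of dividing cells' genes in the members' rise was not tested.

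Members were mostly well expressed, and when all genes were cut by mean level into 3 classes of equal size, the highest class (44.1 CPM or more over the 9 libraries) held 57 of the 93. In that class 49.7% of all genes rose in 5-FU+Saline, and 55 of the 57 members did. In the middle class 32.6% of all genes and 24 of 32 members rose. Members are also short, with a median exon length of 1718 bases beside 3766 for all genes, and by exon length 58 of 67 rose in the short class, where 28.4% of all genes rose, 20 of 21 in the middle one (36.9% of all genes) and 3 of 5 in the long one (33.1%).

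Complex I, the NADH dehydrogenase, had 34 of 36 subunits higher in 5-FU+Saline and none lower by edgeR, DESeq2 or limma-voom, or at an unadjusted p under 0.05. The median was 1.50-fold. Its 7 core subunits, which carry the electron path, all rose, with a median of 1.36-fold, and 27 of the 29 accessory subunits rose, with a median of 1.52-fold; the difference between these classes was not tested.

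Ndufc1 (chr3:51404677-51408988, minus strand, mm10), an accessory subunit of the membrane arm, was measured at 13.2, 13.8 and 14.3 CPM for Control, 26.6, 28.1 and 28.1 with 5-FU+Saline and 22.8, 18.0 and 19.8 with 5-FU+FMT. The 3 groups did not overlap, and the log2 difference of 5-FU+Saline from Control was 1.00 (SE 0.10, adjusted p = 5.62e-15). Ndufs5, another accessory subunit, had 21.3, 19.3 and 24.3 CPM for Control, 45.7, 42.5 and 43.0 with 5-FU+Saline, and 34.3, 33.5 and 33.3 with 5-FU+FMT. It rose 1.99-fold (adjusted p = 4.56e-19). Ndufs6, a zinc-binding accessory subunit, went from 22.6 ± 1.57 to 39.7 ± 1.30 CPM, a 1.76-fold rise (adjusted p = 3.66e-15).

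The core subunit Ndufv2, an iron-sulfur protein of the NADH module, had 52.1, 53.2 and 54.2 CPM for Control and 97.0, 88.9 and 91.6 with 5-FU+Saline, and rose 1.74-fold (adjusted p = 9.23e-23). Its partner Ndufv1, which binds NADH, changed far less: 105, 97.3 and 98.6 CPM became 117, 114 and 121, a 1.17-fold rise (adjusted p = 4.98e-06). Per kilobase of exon, the highest levels of complex I in Control were those of Ndufb11 (80.5 CPM per kb) and Ndufa2 (57.5 CPM per kb).

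The pair that did not pass were accessory subunits. Ndufa6 stood at 40.9, 40.7 and 42.1 CPM for Control, 42.2, 44.2 and 44.5 with 5-FU+Saline and 45.3, 42.8 and 49.2 with 5-FU+FMT, with a log2 difference between the first groups of 0.08 (SE 0.07, adjusted p = 0.289). Ndufb2 stood at 11.2 ± 0.683, 10.9 ± 1.17 and 11.5 ± 0.361 CPM, with a log2 difference of -0.04 (SE 0.13, adjusted p = 0.789). Ndufa6 is among the members with the NRF1 letters printed above. Ndufa1 and Ndufb11 are X-linked, as is Cox7b, and all 3 rose, by 1.34-, 1.15- and 1.79-fold, in groups whose Xist levels differ as given above.

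Of the complex I assembly factors, which help to build the complex and are not part of it, 5 of 8 rose in 5-FU+Saline and none fell, with a median of 1.41-fold. Ndufaf2 rose most, from 10.1, 9.26 and 10.8 CPM to 19.2, 18.6 and 17.9 (1.83-fold, adjusted p = 6.64e-10). Of its exon bases 65.6% are shared with B230220B15Rik on the opposite strand, and the file headers record no strand setting, so the reads of this pair cannot be told apart. Ndufaf3, Ndufaf5 and Ndufaf7 did not pass, with log2 differences of 0.09, 0.14 and 0.16.

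Complex II, succinate dehydrogenase, is the member of the chain that belongs also to the citric acid cycle and is wholly nuclear-encoded. All 4 subunits rose, with a median of 1.45-fold. Sdhb, the iron-sulfur subunit, had 64.6, 62.9 and 55.7 CPM for Control, 108, 91.6 and 98.6 with 5-FU+Saline and 84.0, 84.1 and 84.8 with 5-FU+FMT. The groups did not overlap, and the rise was 1.64-fold (adjusted p = 4.98e-20). Sdha, the flavoprotein that oxidises succinate, rose 1.37-fold, from 266 ± 5.76 to 364 ± 11.1 CPM (adjusted p = 2.61e-23). The membrane anchors Sdhc and Sdhd rose 1.42- and 1.49-fold. Sdhd (68.5 CPM per kb) and Sdha (64.4 CPM per kb) had the highest levels per kilobase in Control.

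Among the Sdhaf assembly factors, 3 of 4 rose and none fell. Sdhaf1, needed to insert iron-sulfur clusters into Sdhb, had 1.94, 1.74 and 1.71 CPM for Control, 2.78, 3.50 and 4.96 with 5-FU+Saline and 2.83, 3.23 and 3.47 with 5-FU+FMT. Its 2.11-fold rise (log2 1.07, SE 0.27, adjusted p = 3.74e-04) came at a low level, and 69.6% of its exon bases are shared with E130208F15Rik on the opposite strand. Sdhaf2 did not pass (log2 0.14, adjusted p = 0.0917).

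Complex III passes electrons from ubiquinol to cytochrome c. Of its 8 members 7 rose, with a median of 1.56-fold over the 8. Uqcr10 (chr11:4701973-4704342, minus strand), a small subunit, rose most: 34.5, 37.2 and 39.5 CPM for Control, 70.1, 67.1 and 70.1 with 5-FU+Saline and 54.7, 51.4 and 49.8 with 5-FU+FMT. The groups did not overlap, and the rise was 1.86-fold (adjusted p = 8.09e-22). Uqcrb, Uqcrq and Uqcr11, also small subunits, rose 1.62-, 1.58- and 1.58-fold. Uqcrc1, a core protein, rose 1.55-fold, from 159 ± 7.70 to 248 ± 8.68 CPM (adjusted p = 1.42e-26).

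Uqcrh, the hinge protein that docks cytochrome c1, was the exception in complex III and had its highest level per kilobase in Control (74.7 CPM per kb). It stood at 89.0, 92.4 and 95.9 CPM for Control, 97.8, 97.3 and 97.8 with 5-FU+Saline and 106, 91.2 and 101 with 5-FU+FMT. Its log2 difference was 0.08 (SE 0.05, adjusted p = 0.152) although the 3 libraries of 5-FU+Saline all lay above those of Control. Uqcrh-ps1 and Uqcrh-ps2 are among the pseudogenes left out, and how their reads were shared with Uqcrh was not tested.

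Complex IV, cytochrome c oxidase, reduces oxygen to water, and many of its nuclear subunits exist as alternative forms encoded by separate genes. Of 16 tested members 12 rose, 1 fell and 3 did not pass, with a median of 1.57-fold. Among its common subunits, Cox5a went from 47.7, 48.0 and 47.2 CPM to 91.5, 84.9 and 81.3 (1.80-fold, adjusted p = 7.29e-23). Cox7b rose 1.79-fold, Cox6c 1.70-fold and Cox6a1 1.64-fold. Cox8a, with the highest level of the complex per kilobase in Control (209 CPM per kb), rose 1.44-fold, and Cox7c rose 1.24-fold. Ndufa4 went from 82.6 ± 5.78 to 128 ± 4.94 CPM (1.54-fold, adjusted p = 1.88e-20).

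Cox4i2 (chr2:152754173-152765037, plus strand, mm10) showed the largest fold of any tested member. It is the alternative form of Cox4i1, known from lung and from oxygen sensing, and is also a known transcript of pericytes. It had 1.19, 0.734 and 1.23 CPM for Control, 6.15, 7.44 and 6.40 with 5-FU+Saline and 5.92, 4.07 and 4.77 with 5-FU+FMT. The log2 difference was 2.61 (SE 0.25, adjusted p = 1.90e-15) between the first groups and 2.18 (SE 0.26, adjusted p = 2.83e-11) between 5-FU+FMT and Control. Cox4i1 rose 1.40-fold, from 187 ± 7.81 to 262 ± 14.8 CPM, so Cox4i2 made up 1.09% of the pair's level per kilobase in Control, 4.79% with 5-FU+Saline and 4.05% with 5-FU+FMT. Of 10 pericyte and smooth muscle markers, 4 could be tested and 3 rose in 5-FU+Saline: Abcc9 (0.348 to 7.63 CPM), Kcnj8 (0.151 to 1.03 CPM) and Notch3 (6.05 to 8.45 CPM). The fourth, Tagln, was at 1.80, 0.986 and 0.760 CPM in the 3 groups, with a log2 difference of -0.89 in 5-FU+Saline that did not pass by edgeR (adjusted p = 0.0525) and did by limma-voom. In 5-FU+FMT it was lower than in Control (log2 -1.23, adjusted p = 0.0151), a call lost without 5-FU+FMT replicate 3. The list's summed level was 8.62 to 9.28 CPM for Control, 18.4 to 19.9 with 5-FU+Saline and 9.53 to 14.8 with 5-FU+FMT. The defining marker Rgs5 was at 0.0249, 0 and 0.0429 CPM in the 3 groups, and Des and Higd1b were at 0 in Control. The part of such cells in the Cox4i2 result was not tested.

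Cox7a2l (chr17:83501918-83517330, minus strand) was the called member of complex IV that fell. Its product is known to link complexes III and IV into supercomplexes in some mouse strains. Whether it does so in the strain used was not tested. Cox7a2l had 193, 190 and 192 CPM for Control, 167, 165 and 161 with 5-FU+Saline and 180, 171 and 173 with 5-FU+FMT. The 3 groups did not overlap and their order was the reverse of most members. The log2 difference was -0.22 (SE 0.03, adjusted p = 4.90e-08) in 5-FU+Saline and -0.13 (SE 0.03, adjusted p = 0.00107) in 5-FU+FMT against Control. Its relative Cox7a2, a subunit of complex IV itself, rose 1.68-fold, from 38.9, 33.7 and 33.7 CPM to 62.0, 59.6 and 57.7. Per kilobase, Cox7a2l made up 76.4% ± 1.48 of the summed Cox7a1, Cox7a2 and Cox7a2l level in Control, 63.0% ± 0.743 with 5-FU+Saline and 69.4% ± 0.670 with 5-FU+FMT.

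A similar divergence was seen between Cox6b1, the common form of its subunit, and Cox6b2, known as the form of testis and sperm. Cox6b1 rose 1.60-fold, from 65.6 ± 4.97 to 104 ± 1.21 CPM. Cox6b2 had 22.0, 22.3 and 22.8 CPM for Control, 20.0, 21.1 and 21.8 with 5-FU+Saline and 23.0, 25.2 and 26.6 with 5-FU+FMT, and its log2 difference of -0.09 with 5-FU+Saline did not pass (adjusted p = 0.368). Its share of the pair per kilobase was 17.9% ± 1.07, 11.4% ± 0.338 and 15.6% ± 1.28 in the 3 groups. Of 8 germ cell markers, Ddx4 was at 18.4, 14.9 and 21.3 CPM and the other 7 were under 1 CPM in each group.

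The forms of striated muscle were nearly silent. Cox6a2 was at 0.679, 0.814 and 0.822 CPM and Cox7a1 at 1.28, 1.10 and 1.64 CPM in the 3 groups, and neither passed the test in any comparison. The count filter removed 5 members: Cox7b2 (0.0483 CPM for Control and 0 in both treated groups), Cox8b (0.109, 0.0865 and 0 CPM), Cox8c (0 in all 9 libraries), Ndufa4l2 (0.0178, 0.207 and 0.0481 CPM), a form known from hypoxia, and the second row of Atp5o, which had no count and shares all of its exon bases with other rows. Summed levels of 14 skeletal and heart muscle markers were 8.53 to 12.5 CPM for Control, 6.94 to 7.44 with 5-FU+Saline and 7.72 to 9.03 with 5-FU+FMT. Of the 14, Mb and Actc1 were at 0 in all groups, 4 could be tested, and 2 of these were lower in 5-FU+Saline than in Control: Tnnt3 (3.19 to 0.861 CPM) and Tnni2 (2.83 to 1.84 CPM). A list of 8 fat cell genes, drawn up for brown fat but holding general ones such as Pparg and Plin1, went the other way. Of its 4 tested genes 3 rose in 5-FU+Saline and 1 did not pass, and the list does not mark brown fat alone. Its summed level was 12.5 to 16.2 CPM for Control, 33.3 to 36.4 with 5-FU+Saline and 18.3 to 19.2 with 5-FU+FMT.

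**Figure D2:**
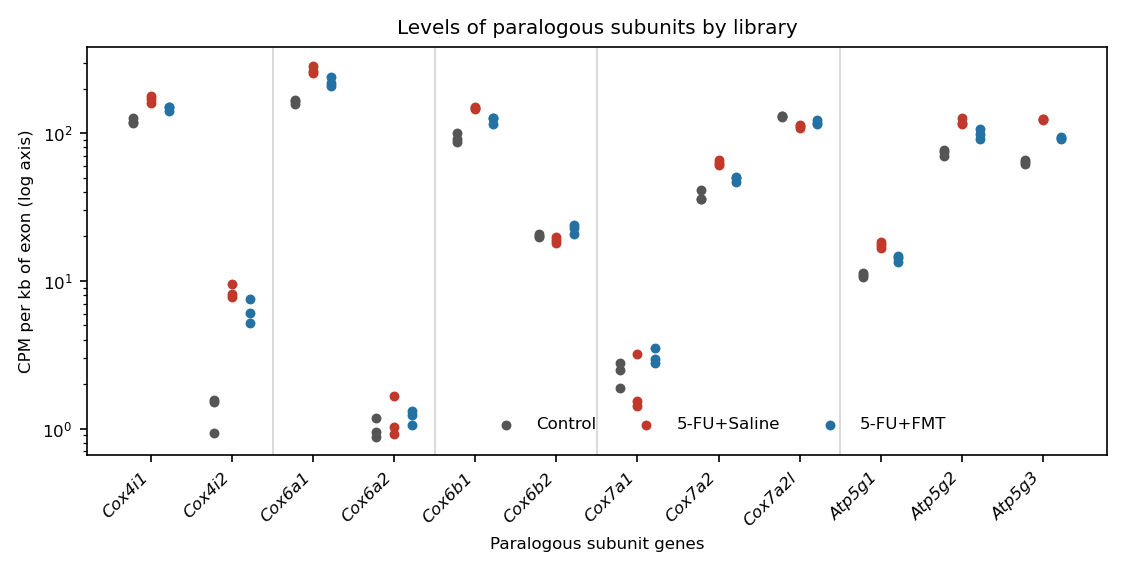
Levels of alternative forms of the same subunit, in CPM per kilobase of exon on a log axis; each point is a library and vertical lines part the families. Cox4i2 lies apart from Control in both treated groups, Cox7a2l falls while Cox7a2 rises, and Cox6a2, Cox7a1 and Cox4i2 are the lowest genes shown.

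Complex V, the ATP synthase, showed the largest rise of the complexes by summed level, 1.67-fold, against 1.42- to 1.47-fold for complexes I to IV. Of 17 tested members 16 rose and 1 fell, with a median of 1.62-fold. Atp5b (chr10:128083273-128090391, plus strand), the catalytic beta subunit, had the highest level of all members: 762, 753 and 738 CPM for Control, 1325, 1327 and 1322 with 5-FU+Saline and 1082, 1061 and 1046 with 5-FU+FMT. The libraries of each group lay close together and far from the next group, and the log2 difference was 0.82 (SE 0.02, adjusted p = 3.02e-45). Atp5a1, the alpha subunit, rose 1.65-fold, from 627 ± 9.65 to 1036 ± 10.4 CPM (adjusted p = 5.80e-41). Per kilobase these were also the highest of the complex, at 200 CPM per kb for Atp5a1 and 177 CPM per kb for Atp5b in Control. All 5 subunits of the catalytic F1 head rose, with a median of 1.59-fold, and so did all 11 tested genes of the membrane part and stalks, with a median of 1.63-fold.

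The c ring, which turns as protons pass, is encoded by Atp5g1, Atp5g2 and Atp5g3, whose mature proteins are known to be identical. Atp5g3 (chr2:73908447-73911326, minus strand) had 138, 143 and 135 CPM for Control, 269, 266 and 272 with 5-FU+Saline and 200, 203 and 205 with 5-FU+FMT, and rose 1.94-fold (adjusted p = 2.40e-39). Atp5g2 rose 1.61-fold, from 124 ± 6.10 to 200 ± 10.3 CPM, and Atp5g1 1.59-fold, from 53.9 ± 1.66 to 85.9 ± 3.96 CPM. The share of Atp5g3 in the family's level per kilobase was 42.9% ± 1.74 in Control, 47.4% ± 1.07 with 5-FU+Saline and 45.2% ± 1.75 with 5-FU+FMT, and that of Atp5g1 was 7.39%, 6.72% and 6.86%. Whether the genes of the family differ in their rise was not tested.

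Atp5k, which encodes the small e subunit and carries the paired NRF1 letters shown above, had 14.1, 16.2 and 13.9 CPM for Control, 31.6, 27.9 and 27.6 with 5-FU+Saline and 23.8, 19.7 and 18.8 with 5-FU+FMT. It rose 1.98-fold (log2 0.99, SE 0.10, adjusted p = 1.22e-14). Atp5o, a stalk subunit, rose 1.83-fold, from 41.0 ± 1.95 to 74.8 ± 1.04 CPM (adjusted p = 6.77e-23), and 47.9% of its exon bases are shared with other rows. Atp5mpl, a small proteolipid bound to the membrane part, rose 1.67-fold. Atp5s, which encodes factor B, was the member that fell: 15.2, 15.6 and 19.8 CPM for Control, 15.0, 12.7 and 13.2 with 5-FU+Saline and 14.6, 17.0 and 13.1 with 5-FU+FMT. The log2 difference was -0.33 (SE 0.11, adjusted p = 0.00868), and without Control replicate 3, the highest library, it was -0.18 (adjusted p = 0.231), so this call rests on that library.

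**Figure D3:**
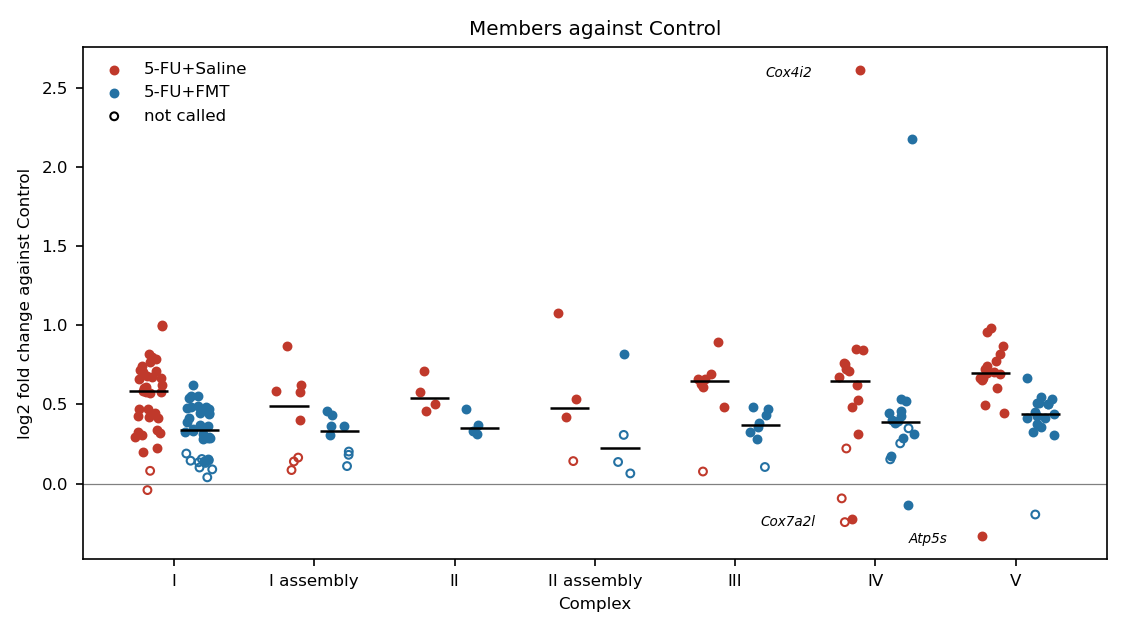
Log2 fold change of each tested member against Control, by complex, in 5-FU+Saline (red) and 5-FU+FMT (blue); open circles did not pass the test and black bars are medians. The medians of 5-FU+FMT lie above 0 and below those of 5-FU+Saline for each complex; Cox4i2 stands alone at the top.

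The second comparison set FMT against saline after 5-FU. Here 70 of the 93 members fell, 2 rose and 21 did not pass. Over all genes 36.9% were called, 19.2% lower and 17.7% higher. In the highest class by mean level, 35.6% of all genes and 54 of the 57 members fell. In the middle class 15.3% of all genes and 16 of 32 members fell. The members' median log2 fold change was -0.23, beside 0.01 for all genes, and in 69 members the 3 libraries of 5-FU+FMT all lay below those of 5-FU+Saline, against 23.7% of all genes; in 2 they all lay above (22.6% of all genes). By complex, 30 of 36 members fell in complex I, 4 of 4 in complex II, 7 of 8 in complex III, 11 of 16 in complex IV and 16 of 17 in complex V. Of the assembly factors, 2 of 8 fell for complex I (Ndufaf2 and Ndufaf4) and none of 4 for complex II, where edgeR gave 1 at an unadjusted p under 0.05 and neither DESeq2 nor limma-voom gave any after adjustment.

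Among called members the steepest was Atp5k, which fell by 0.48 on the log2 scale (SE 0.09, adjusted p = 1.68e-05). Ndufc1 fell by 0.45 (SE 0.09, adjusted p = 4.35e-05) and Ndufaf2 fell by 0.44 (SE 0.11, adjusted p = 0.00103). Uqcr10 fell by 0.41 (SE 0.06, adjusted p = 2.04e-08) and Atp5g3 by 0.41 (SE 0.03, adjusted p = 1.90e-18). Atp5b fell by 0.32 (SE 0.02, adjusted p = 3.66e-20). In complex II the steepest was Sdhb, which fell by 0.24 (SE 0.05, adjusted p = 9.71e-05). The log2 difference of Cox4i2 was -0.43 (SE 0.19), which did not pass (adjusted p = 0.0719), although its 3 libraries lay below those of 5-FU+Saline.

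The pair that rose, both alternative forms of complex IV subunits, had not risen in 5-FU+Saline. Cox6b2 rose 1.19-fold (log2 0.25, SE 0.09, adjusted p = 0.0221), while Ddx4, the germ cell marker named above, rose 1.42-fold. Cox7a2l rose by a log2 of 0.09 (SE 0.03, adjusted p = 0.0359). Neither call was stable: DESeq2 gave adjusted p values of 0.0545 for Cox6b2 and 0.12 for Cox7a2l, and both were lost when 5-FU+FMT replicate 3 was left out (0.128 and 0.0517 by edgeR). Leaving out 5-FU+Saline replicate 1 or 5-FU+FMT replicate 2 also ended the call of Cox6b2 (0.0971 and 0.0632), and leaving out 5-FU+Saline replicate 2 or 3 or 5-FU+FMT replicate 1 that of Cox7a2l (0.0713, 0.164 and 0.198).

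The third comparison set 5-FU+FMT against Control. Of the 93 members 72 were higher, 1 was lower (Cox7a2l) and 20 did not pass. Over all genes 46.6% were called, 25.0% higher and 21.6% lower. In the highest class by mean level, 41.4% of all genes and 52 of the 57 members were higher. In the middle class 23.8% of all genes and 18 of 32 members were higher. With upper-quartile scaling, the split over all genes was 20.0% higher and 27.5% lower, and that of the members 67 and 1. The members' median log2 fold change was 0.36, a 1.29-fold level, beside -0.01 for all genes. The libraries of 5-FU+FMT all lay above those of Control in 76 members and all below in 1, against 27.1% and 25.6% of all genes. In complex I 27 of 36 members were higher, in complex II 4 of 4, in complex III 7 of 8, in complex IV 12 of 16 and in complex V 16 of 17. The largest called folds, apart from Cox4i2 and Sdhaf1 (1.77-fold, adjusted p = 0.0121), were those of Atp5o (1.59-fold, adjusted p = 2.69e-16), Ndufs5 (1.54-fold, adjusted p = 8.88e-10) and Ndufc1 (1.47-fold, adjusted p = 4.27e-06). Ndufv1 was at 103, 107 and 110 CPM in 5-FU+FMT, overlapping Control, and did not pass (log2 0.09, adjusted p = 0.0914).

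The comparisons share groups, so their values are set side by side here and are not independent. Of the 81 members that rose in 5-FU+Saline, 70 were lower in 5-FU+FMT than in 5-FU+Saline, and 64 of these were still higher than in Control. Of all 5443 genes that rose in 5-FU+Saline, 56.2% were lower in 5-FU+FMT than in 5-FU+Saline and 45.8% were also still higher than in Control. Being chosen as high in a group that both comparisons use bears on these shares. All 81 members had their 5-FU+FMT mean between the means of the other groups, as did 93.5% of the 5443 genes. In 64 members the 9 libraries fell in the order Control, 5-FU+FMT, 5-FU+Saline with no overlap between groups, which held for 17.3% of all genes. On the way from the Control mean to the 5-FU+Saline mean, the 5-FU+FMT mean lay at a median of 56.1% for the 81 members, from 18.5% to 73.3%, beside a median of 55.3% for the 5443 genes.

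**Figure D4:**
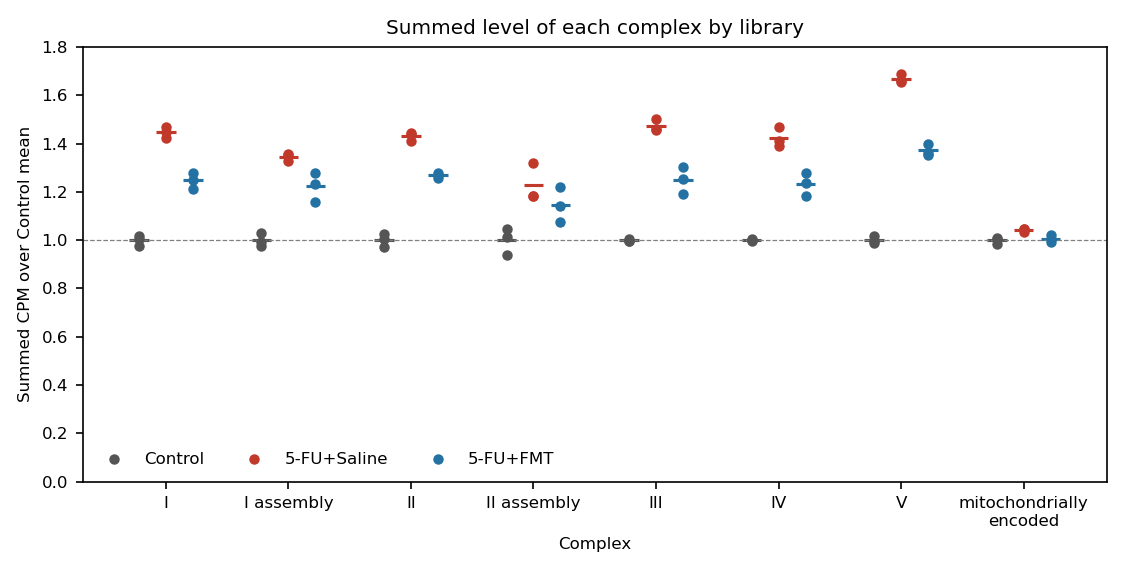
Summed CPM of the members of each complex in each library, divided by the Control mean, beside the mitochondrially encoded subunits; horizontal bars are group means. For the sums of complexes I to V, the libraries of 5-FU+FMT lie between the other groups without overlap, and complex V reaches the highest ratio, 1.67; the mitochondrially encoded sum stays near 1.

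The subunits encoded in mitochondrial DNA, the partners of these proteins, were mixed. Their summed level was 11238 ± 172 CPM for Control, 11713 ± 77.1 with 5-FU+Saline and 11309 ± 158 with 5-FU+FMT. The ratio of the members' sum to it was 0.574 to 0.587 in Control, 0.838 to 0.861 with 5-FU+Saline and 0.739 to 0.755 with 5-FU+FMT. Of 12 tested genes 6 rose in 5-FU+Saline and 1 fell, with a median log2 of 0.06. Over all genes 32.8% rose and 32.7% fell, with a median of -0.02. The complex I genes mt-Nd1, mt-Nd2 and mt-Nd6 rose 1.33-, 1.32- and 1.34-fold, and mt-Nd5 1.23-fold; mt-Nd5 and mt-Nd6 lie on opposite strands and share 14 bases at their ends. mt-Co1, the catalytic subunit of complex IV, fell from 5512 ± 71.0 to 4983 ± 51.6 CPM (log2 -0.15, SE 0.02, adjusted p = 1.53e-10). It made up 49.0% of the sum in Control, and the sum without it was 5726 ± 103 CPM for Control, 6730 ± 29.7 with 5-FU+Saline and 6201 ± 88.2 with 5-FU+FMT, the same order as the members' sum. In 5-FU+FMT against 5-FU+Saline 5 of the 12 fell by edgeR (7 at an unadjusted p under 0.05), 6 by DESeq2 and 7 by limma-voom, and in 8 the libraries of 5-FU+FMT all lay below. None rose by edgeR, also at an unadjusted p under 0.05, or by DESeq2, and 1 rose by limma-voom. Over all genes 19.2% fell and 17.7% rose by edgeR, and in 23.7% the libraries of 5-FU+FMT all lay below. Means of mt-Co2, mt-Co3, mt-Atp6, mt-Atp8, mt-Nd3 and mt-Nd4l were 14.5 CPM or lower in every group. The headers name the alignments as unique ones, so levels of mitochondrial genes with near-identical nuclear copies are uncertain.

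Enzymes around the chain were counted from further lists. Of 10 genes for cytochrome c and for other routes of electrons into the chain, 8 rose in 5-FU+Saline and 2 fell, with a median log2 of 0.47. Cyc1, cytochrome c1 of complex III, rose 1.75-fold (104 ± 5.12 to 180 ± 5.21 CPM), and Cycs, cytochrome c, rose 1.72-fold. The sulfide oxidase Sqor fell to 0.317-fold (17.7 ± 0.395 to 5.60 ± 0.520 CPM), and the proline dehydrogenase Prodh to 0.732-fold. In 5-FU+FMT against 5-FU+Saline 6 of these 10 fell and 1 rose, namely Sqor (1.94-fold). The shares over all genes were 32.8% higher and 32.7% lower in 5-FU+Saline against Control, and 19.2% lower and 17.7% higher in 5-FU+FMT against 5-FU+Saline.

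Of 16 genes of the citric acid cycle and pyruvate dehydrogenase, 15 rose in 5-FU+Saline and none fell by edgeR, DESeq2 or limma-voom, with a median log2 of 0.52. Mdh2, the malate dehydrogenase, rose 1.79-fold and Cs, the citrate synthase, 1.56-fold. In 5-FU+FMT against 5-FU+Saline 12 of the 16 fell. All 10 carriers and porins rose, with a median log2 of 0.51, among them the ADP/ATP carrier Slc25a5 (1.73-fold) and the outer membrane channel Vdac1 (1.53-fold), and 8 of the 10 fell in 5-FU+FMT against 5-FU+Saline. For scale, 32.8% of all genes rose in 5-FU+Saline, and 19.2% fell in 5-FU+FMT against 5-FU+Saline.

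Assembly factors outside the name rule leaned the same way as the members, with a smaller share called. Of 35 tested assembly factors, 17 rose in 5-FU+Saline, 2 fell and 16 did not pass, with a median log2 of 0.28. Over all genes 32.8% rose and 32.7% fell, with a median of -0.02. In 5-FU+FMT against 5-FU+Saline 7 of the 35 fell and 0 rose, where 19.2% of all genes fell and 17.7% rose. Uqcc2, a factor for complex III, rose 1.90-fold and Atpaf1, which assembles the F1 head, 1.76-fold, while Cox20 (4.06 to 1.96 CPM) and Foxred1 (0.874-fold) fell. Of 21 regulators of mitochondrial biogenesis, 11 rose and 3 fell, with a median log2 of 0.17. Lrpprc, which stabilises mitochondrial mRNA, rose 1.58-fold, and Gabpa, a DNA-binding regulator of respiratory genes, rose 1.34-fold. Nrf1, whose letters are shown above, rose 1.34-fold (56.0 ± 2.95 to 75.2 ± 1.93 CPM). Polg2, the accessory subunit of the mitochondrial DNA polymerase, fell from 40.2 ± 2.38 to 18.8 ± 0.747 CPM (adjusted p = 2.05e-20), and the coactivator Ppargc1a, at a low level, fell from 3.82 to 2.32 CPM (adjusted p = 0.00898).

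In a list of genes for mitophagy and for hypoxic restraint of respiration, 9 of 15 were lower and 4 higher in 5-FU+Saline, with a median log2 of -0.23. Over all genes 32.7% were lower and 32.8% higher, with a median of -0.02. Ndrg1, a hypoxia-responsive gene, fell to 0.334-fold and Hif3a to 0.170-fold. Higd1a, a small partner of the chain, rose 1.43-fold, and Egln1, an oxygen-sensing prolyl hydroxylase, 1.28-fold. In 5-FU+FMT against 5-FU+Saline 7 of the 15 rose and 4 fell, and against Control 5 were lower and none higher by edgeR, which gave 1 at an unadjusted p under 0.05; DESeq2 and limma-voom called none. Over all genes 17.7% rose and 19.2% fell in the first of these comparisons, and 21.6% were lower and 25.0% higher in the second.

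Some members stand head to head with a neighbour, as genes that share a promoter region do. For 24 tested members the nearest gene on the opposite strand starts within 1000 bases. Of these members 19 rose and 1 fell in 5-FU+Saline, with a median log2 of 0.43, beside 81 of all 93 tested members and 0.61. Of their neighbours 10 rose, 4 fell and 10 did not pass, with a median of 0.07. Over all genes tested 32.8% rose and 32.7% fell, with a median of -0.02. In 10 pairs the member rose and the neighbour did not, and in 18 of 24 the member's log2 fold change was the greater. Ndufa4 rose (log2 0.62) beside Phf14, which fell (log2 -0.51). Ndufb3 rose (log2 0.33) beside Fam126b, which fell (log2 -0.52). In the pairs of Ndufs6 with Mrpl36 and of Sdhd with Timm8b, whose neighbours are themselves mitochondrial genes, both rose.

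**Figure D5:**
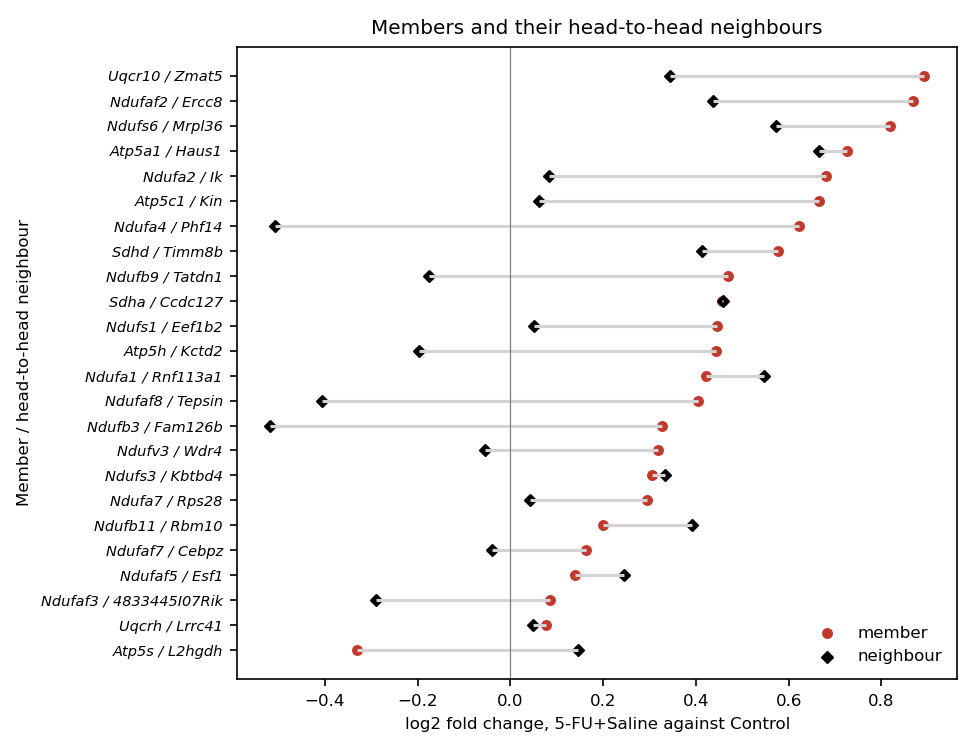
Log2 fold change of 24 members (circles) and of the gene that starts head to head with each (diamonds), in 5-FU+Saline against Control. The member lies to the right of its neighbour in 18 of the 24 pairs, and the neighbours spread on both sides of 0.

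Because the headers record no strand setting, members that share exon bases with another gene were also set apart. There were 34 such tested members, 2 of them (Ndufaf2 and Sdhaf1) with more than 50% of their bases shared. Of the 59 members that share none, 51 rose in 5-FU+Saline, 45 fell in 5-FU+FMT against 5-FU+Saline and 45 were higher in 5-FU+FMT than in Control. The same counts over all 93 tested members were 81, 70 and 72, and the shares over all genes were 32.8%, 19.2% and 25.0%.

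Across the 9 libraries, 69 of the 93 members had a correlation above 0.9 with the members' mean standardised level, as did 18.4% of all genes; the points share 3 groups that stand far apart, so this is a description. The genes outside the list with the most similar pattern, given a level of 10 CPM or higher in any group, were Ppia, the prolyl isomerase cyclophilin A (Pearson r = 0.999), Npm1, a nucleolar chaperone (0.998), Rps2, a ribosomal protein (0.998), Cbx3, a chromatin protein (0.998), and Pgk1, a glycolytic kinase (0.998). Pgk1 had means of 210, 421 and 330 CPM for Control, 5-FU+Saline and 5-FU+FMT. Cox7a2l had r = -0.94, the lowest of the members.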

How the data were processed

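Each library has a deposited table of read counts by gene. Per the submitters' processing notes, the authors trimmed reads with Trim Galore 0.6.5, aligned them to mm10 with HISAT2 2.2.1 and counted them with featureCounts 2.0.1; per the file headers, read pairs were counted over exons of GENCODE M25. Symbols and biotypes were added from reference tables (55141 and 55227 of 56262 IDs; biotypes from M21). Genes passing filterByExpr (16595) were fitted over all 9 libraries in edgeR 4.0.16 (R 4.3.3; TMM, quasi-likelihood F test, Benjamini-Hochberg over all genes per comparison, called under 0.05; biological coefficient of variation 3.74%). Adjusted p-values are from edgeR unless another tool is named. CPM use TMM-scaled library sizes. Alternatives used DESeq2 1.42.0, limma 3.58.1 (voom), other scalings, filters, subsets and a replicate block. On simulated counts for 5-FU+Saline against Control (16454 genes fitted), edgeR called 100 of 100 genes changed by 0.6 (log2), 78 of 100 changed by 0.3 and 14 of 16254 unchanged genes. Of genes changed by 0.15 it called 14 of 100 in 5-FU+FMT against 5-FU+Saline and 8 of 100 in 5-FU+FMT against Control. The simulation started all groups from Control means and gave every gene the same spread. It also changed far fewer genes than were called in the real counts, so its rates need not hold for them. Members and lists were chosen with earlier results of these data known. Named were, per complex and comparison, the 3 largest called folds, members moving against their complex, paralogues, the 2 highest levels per kilobase and members failing the filter; per other list, up to 2 called genes per direction with the smallest p. Other genes were named after their values were seen: Ndufaf3, Ndufaf4, Ndufaf5, Ndufaf7, Sdhaf2, Nrf1, Top2a, mt-Nd6, mt-Nd5, markers and neighbours. Values of 1 member are not reported here; it stays in the counts and medians.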

Additional observations from a re-analysis of the deposited data

How the results depend on the processing

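Counts of members called higher in 5-FU+Saline against Control were 79 to 84 over the 18 alternatives, lower in 5-FU+FMT against 5-FU+Saline 57 to 72, and higher in 5-FU+FMT against Control 67 to 78. With 1 library left out, these counts ran from 80 to 81, 57 to 71 and 69 to 77. Small counts were less stable. Members higher in 5-FU+FMT against 5-FU+Saline were 2 in the edgeR fit, 0 by DESeq2 (2 at an unadjusted p under 0.05), 1 with RLE factors, 1 with no filter, and 0 to 2 with 1 library left out, where the 0 was without 5-FU+FMT replicate 3 (1 at an unadjusted p under 0.05 by edgeR). Members lower in 5-FU+Saline against Control were 1 to 2 with 1 library left out. The single member lower in 5-FU+FMT against Control, Cox7a2l, was not called with no filter (0 members, 1 at an unadjusted p under 0.05 by edgeR).

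Signs reversed for some log2 differences of the 48 named members, all of them uncalled, and the cause was not tested. In 5-FU+Saline against Control, Ndufb2 became 0.00306 with no filter and Uqcrh -0.000325 with upper-quartile factors; with 1 library left out, Ndufb2 ran from -0.0950 to 0.0469 and Cox6a2 from -0.0602 to 0.401. In 5-FU+FMT against 5-FU+Saline, with 1 library left out, Ndufb2 ran from -0.00378 to 0.137, Sdhaf1 from -0.426 to 0.0117, Uqcrh from -0.0238 to 0.0856 and Cox6a2 from -0.144 to 0.319. In 5-FU+FMT against Control, Ndufb2 became -0.0258 with upper-quartile factors and ran from -0.00655 to 0.0688 with 1 library left out.

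The groups share replicate numbers, and the labels do not say whether a number pairs libraries. Deviations from the group means correlated between -0.025 and 0.025 for same-numbered libraries and between -0.031 and 0.032 for differently numbered ones. With so few libraries per group this cannot exclude a shared animal, day or batch. With the number as a replicate block, 81 members were higher and 2 lower in 5-FU+Saline against Control, 2 and 71 in 5-FU+FMT against 5-FU+Saline, and 72 and 1 in 5-FU+FMT against Control. Counts bound the precision of low members: Cox6a2 had 106 counts over the 9 libraries.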
